A study of Caenorhabditis elegans with 2 samples.

Results

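Neuropeptide processing and dense-core vesicle genes are described here as sites of CEH-48 in the late embryo of Caenorhabditis elegans. The 8 genes egl-3, kpc-1, egl-21, sbt-1, ida-1, unc-31, ric-19 and unc-108 were chosen by name, out of 19973 protein-coding genes of the Ensembl annotation. A region was counted for a gene when its summit, the base of highest signal, lay in the gene body or within 3 kb of the gene's 5′ end on either side. CEH-48 is a homeodomain transcription factor of the ONECUT (CUT) class that is present in nearly all neurons of the worm. The series has 1 group of 2 ChIP-seq samples (sequencing of chromatin fragments recovered with an antibody), labelled as biological replicates of whole, mixed-sex embryos of strain OP631, taken 3.5 hours after synchronization by bleaching. The strain carries the unc-119(tm4063) allele and the transgene wgIs631, which makes CEH-48 fused to GFP and FLAG at its C-terminus. An antibody against GFP is named in the description of the samples, whereas their antibody tag reads ceh-48. Chromatin of all cells was mixed, so no summit can be given to a cell type. An antibody against GFP is directed at the tagged protein and not at untagged CEH-48. The series has no untagged strain, so recovery that does not depend on the tag was not measured.

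Neuropeptides are made as long precursors and are cut, trimmed and often amidated inside dense-core vesicles, which differ from synaptic vesicles in being built at the Golgi and in releasing their cargo more slowly. A proprotein convertase cuts the precursor at pairs of basic residues, a carboxypeptidase removes the exposed basic residues, and a pair of amidating activities finishes many peptides. Other proteins sort cargo as the vesicle matures and prime the finished vesicle for fusion. In the worm, egl-3, egl-21, sbt-1, unc-31 and ric-19 are expressed widely in the nervous system, while unc-108 also acts in other tissues.

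Each list names regions by interval, summit and signal. The authors deposited 1 list per replicate, with 28372 regions for replicate 1 and 30000 for replicate 2, a list of 30000 regions for both pooled, and the 1840 regions kept by IDR, which compares the ranking of regions in the replicates. The replicate and pooled lists hold background beside peaks by their design. The scale of the signal is not stated, so comparisons of signal stay within a list, and the ranks of a region (1 is strongest) are given for each list side by side. Read numbers are not in the lists, so the depth behind each value is unknown. With 1 group, 2 replicates and no untagged strain, no test between conditions exists, and shares of genes are set beside the share of all protein-coding genes.

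An IDR summit was found at 7 of the 8 genes, 1 summit each, and ida-1 had none. By the same rule 13.5% of all protein-coding genes had an IDR summit, and 13.6% of the 14864 genes whose length lay between those of the shortest member (1167 bp) and the longest (14488 bp). That wide range takes in most of the 19973 genes, so length was not matched. The median length was 4104.5 bp for the members and 2027 bp over all protein-coding genes. The members were named with results of these data already known. Neither their share nor the signal of their peaks, given next, therefore carries a test. The median signal of the 7 peaks was 233, beside 141 over all IDR peaks, and 6 of the 7 lay above that median. The exception was the peak in kpc-1.

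The sequence ATCGAT, a palindrome that is known as a core of CUT homeodomain binding sites, lay in the 100 bp around the summit at egl-3, egl-21, sbt-1 and kpc-1, which is 4 of 7 peaks, against 44.2% of all 1840 IDR peaks. The sequences show this core at the first 3 of these genes, its T variant at unc-31, and the start of ida-1, where neither was found. Each reads 5′ to 3′ on the strand of the gene, in the WBcel235 (ce11) sequence of RefSeq, with ATCGAT, or ATTGAT at unc-31, in capitals. Those of egl-21 and ida-1 end at the last base before the annotated transcript. The egl-3 peak is at chrV:10174721-10174820 (minus strand), the sbt-1 peak at chrV:20828996-20829095 (minus strand), the egl-21 peak at chrIV:10481845-10481893 (minus strand), the unc-31 peak at chrIV:12771609-12771708 (plus strand) and the ida-1 region at chrIII:5755466-5755538 (plus strand).
egl-3: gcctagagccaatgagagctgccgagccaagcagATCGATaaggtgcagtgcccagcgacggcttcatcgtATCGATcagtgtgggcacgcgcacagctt
sbt-1: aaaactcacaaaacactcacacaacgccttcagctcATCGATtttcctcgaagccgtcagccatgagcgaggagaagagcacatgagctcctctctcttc
egl-21: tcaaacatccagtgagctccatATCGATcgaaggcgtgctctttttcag
unc-31: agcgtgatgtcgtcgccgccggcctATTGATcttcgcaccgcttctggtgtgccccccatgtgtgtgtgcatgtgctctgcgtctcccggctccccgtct
ida-1: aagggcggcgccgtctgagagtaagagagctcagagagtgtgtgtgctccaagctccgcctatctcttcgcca

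The strongest peak of the group lay upstream of egl-3, which encodes the proprotein convertase that cuts most neuropeptide precursors in the worm. The pooled signal was 686 (rank 14), with 187 in replicate 1 (rank 14) and 499 in replicate 2 (rank 15). The summits of the 2 replicates were 2 bp apart, the smallest gap among the 7 peaks, against a median of 21 bp over 1737 IDR peaks matched in both replicates. The summit lay 1018 bp upstream of the 5′ end on chromosome V, and no other protein-coding gene held it by the same rule. The printed window has 2 copies of ATCGAT whose first bases are 37 bp apart, with centres 12.5 and 24.5 bp from the summit on opposite sides. Such a pair or more was present in 12.0% of all IDR windows. These were the only copies of ATCGAT in the 7577 bp searched at egl-3, and the pooled list had no other region there.

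The peak at sbt-1, which encodes a chaperone that EGL-3 needs to become active, was the next strongest. The pooled signal was 418 (rank 79), with 119 in replicate 1 (rank 75) and 301 in replicate 2 (rank 86). The summit lay 165 bp upstream of sbt-1 and 765 bp upstream of num-1, which is transcribed in the opposite direction, so it belongs to the intergenic sequence of both genes. The single copy of ATCGAT in the 6001 bp searched at sbt-1 had its centre 10.5 bp from the summit. At egl-3 and at sbt-1, every ATCGAT copy of the gene's window thus lay within 50 bp of the IDR summit. A further 2 pooled regions at sbt-1 had signals of 52.8 and 25.4, below the lowest IDR signal of 85.2.

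The peak at egl-21, the carboxypeptidase that trims peptides after EGL-3 has cut, lay on the annotated 5′ end itself. Its summit was the first base of the transcript on chromosome IV, with a pooled signal of 187 (rank 609), 43.7 in replicate 1 (rank 842) and 143 in replicate 2 (rank 573). All 3 values were above the medians of the IDR peaks, which were 141, 41.7 and 103 in the respective lists, and the value in replicate 1 was close to its median. Of 3 copies of ATCGAT in the egl-21 window, 1 lay under the peak, 24.5 bp upstream of the summit. The summit also fell within 3 kb of the 5′ ends of ced-5 (2266 bp) and F01D4.5 (1813 bp).

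The second convertase of the group, kpc-1, is a furin-like enzyme known for its part in the branching of sensory dendrites. Its IDR peak was the weakest of the 7, and its ranks in the replicates lay farthest apart. The pooled signal was 90.0 (rank 1715 of 1840), with 13.6 in replicate 1 (rank 12388) and 79.2 in replicate 2 (rank 1321). The region was thus not among the top 1840 of replicate 1. The same was true of 24.6% of all IDR peaks, those without a match in replicate 1 included. Of the 1840 IDR peaks, 40, that of kpc-1 included, ranked 12388th or weaker in replicate 1, and another 80 had no summit within 100 bp in that list. The summit lay in coding exon 6, 4426 bp downstream of the 5′ end and nearer to the 5′ end of scrm-4 (2074 bp), a gene on the opposite strand. A copy of ATCGAT was centred 2.5 bp from the summit, with another 63.5 bp away. The pooled list had 6 weaker regions at kpc-1, from 27.9 to 80.1, the strongest of them in intron 2. In replicate 2 that intronic region ranked 1776th, and so within its top 1840.

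**Figure D1:**
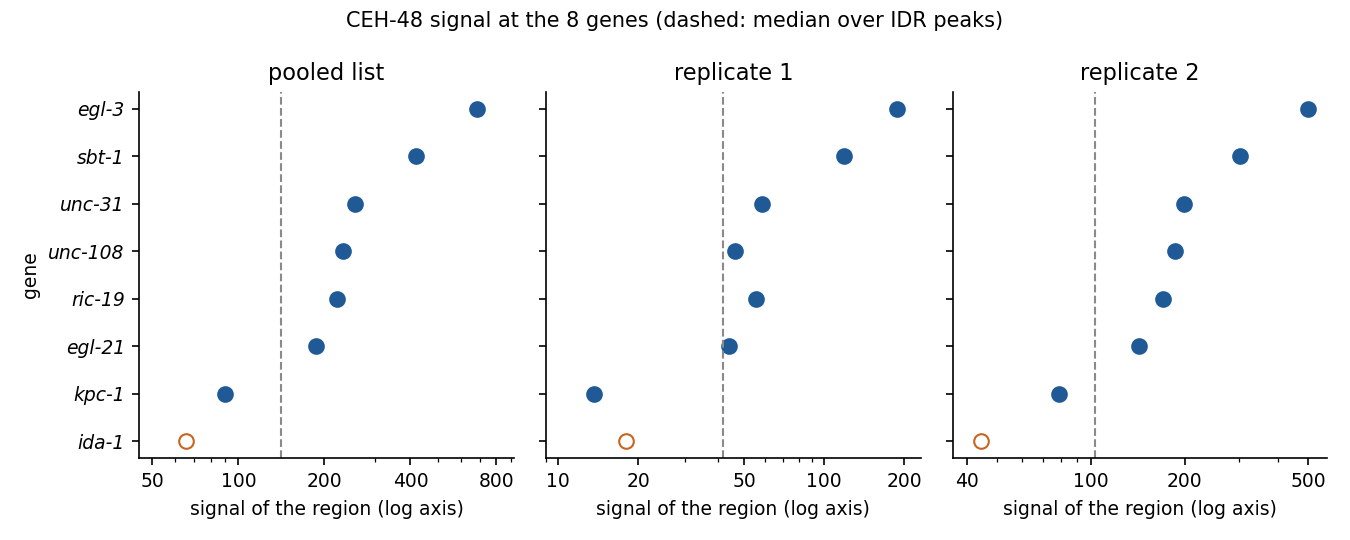
Signal of the region at each gene (rows, ordered by pooled signal) in the pooled list, replicate 1 and replicate 2, on log axes with a separate scale per list. Filled points are IDR peaks, the open point is the ida-1 region below the IDR set, and dashed lines are the medians over IDR peaks (141, 41.7 and 103); egl-3 and sbt-1 lead in every list and kpc-1 lies left of the line in each.

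Of the 4 members that act in vesicle maturation and release, unc-31 had the strongest peak. UNC-31 is the worm's CAPS protein, which primes dense-core vesicles for release. The pooled signal was 256 (rank 347), with 58.5 in replicate 1 (rank 529) and 199 in replicate 2 (rank 302). The summit lay 2208 bp upstream of the 5′ end on chromosome IV, and unc-31 was both the nearest protein-coding 5′ end and the only gene that held it. Its window had the highest GC content of the 7, at 64% against a median of 46% over all IDR peaks. It had no ATCGAT and 1 ATTGAT, centred 22.5 bp from the summit. The nearest ATCGAT was 1164 bp away, although the unc-31 window as a whole held 7 copies. The pooled list had 8 weaker regions at unc-31, from 20.3 to 49.7, the strongest of them in an intron 7232 bp downstream of the 5′ end. Another lay 357 bp upstream of the gene, with a pooled signal of 42.7, 21.5 in the replicate 1 list and 18.4 in the replicate 2 list.

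Both genes that act in the making of the vesicle at the Golgi had peaks of similar signal without the core. RIC-19, the worm's counterpart of the islet autoantigen ICA69, and UNC-108, the small GTPase Rab2, act together in dense-core vesicle maturation, and their genes lie 41193 bp apart on chromosome I, measured between 5′ ends. At ric-19 the pooled signal was 222 (rank 456), with 55.6 in replicate 1 (rank 570) and 170.3 in replicate 2 (rank 418). At unc-108 it was 233 (rank 414), with 46.3 in replicate 1 (rank 759) and 187 in replicate 2 (rank 347). Their order therefore differed between the replicates, with ric-19 ahead in replicate 1 and unc-108 ahead in replicate 2. The nearest ATCGAT lay 535 bp from the summit at ric-19 and 438 bp at unc-108. Neither 100 bp window held ATTGAT on either strand.

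The ric-19 and unc-108 peaks sat in different places. The ric-19 summit was 49 bp inside the first exon, in the annotated 5′ UTR; in the RefSeq table the gene starts farther in, and the summit was 55 bp upstream of it. It was also 477 bp upstream of the divergent gene pmlr-1 and 2266 bp upstream of C32E8.4. The unc-108 summit was 1600 bp inside the gene, in intron 1, and 464 bp upstream of the next annotated transcript start of unc-108. Of the 100 bp around it, 59% was marked as repeat in the reference sequence, the highest share among the 7 peaks, where 4 had any such base, beside 69.8% of all IDR windows, whose median share was 21%. The unc-108 summit also fell within 3 kb of the 5′ end of mpc-2 (2736 bp).

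The gene without an IDR summit was ida-1, which encodes a protein of the dense-core vesicle membrane related to mammalian phogrin. Its strongest pooled region lay 23 bp upstream of the 5′ end on chromosome III, with a pooled signal of 65.6 (rank 2749), 18 in replicate 1 (rank 5453) and 44.2 in replicate 2 (rank 3368). The pooled value was 77.1% of the lowest IDR signal, and the region was in neither replicate's top 1840. In replicate 1 its signal was above that of the kpc-1 region, which was inside the IDR set. The nearest ATCGAT was 192 bp from this summit. The other 3 pooled regions at ida-1 lay in intron 1 with signals of 23.1, 32.0 and 36.7. A summit in the pooled list, background included, was found at 69.8% of all protein-coding genes, so its presence at ida-1 says little by itself. The nearest IDR summit was 14406 bp downstream of the 5′ end and 4129 bp beyond the searched window.

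**Figure D2:**
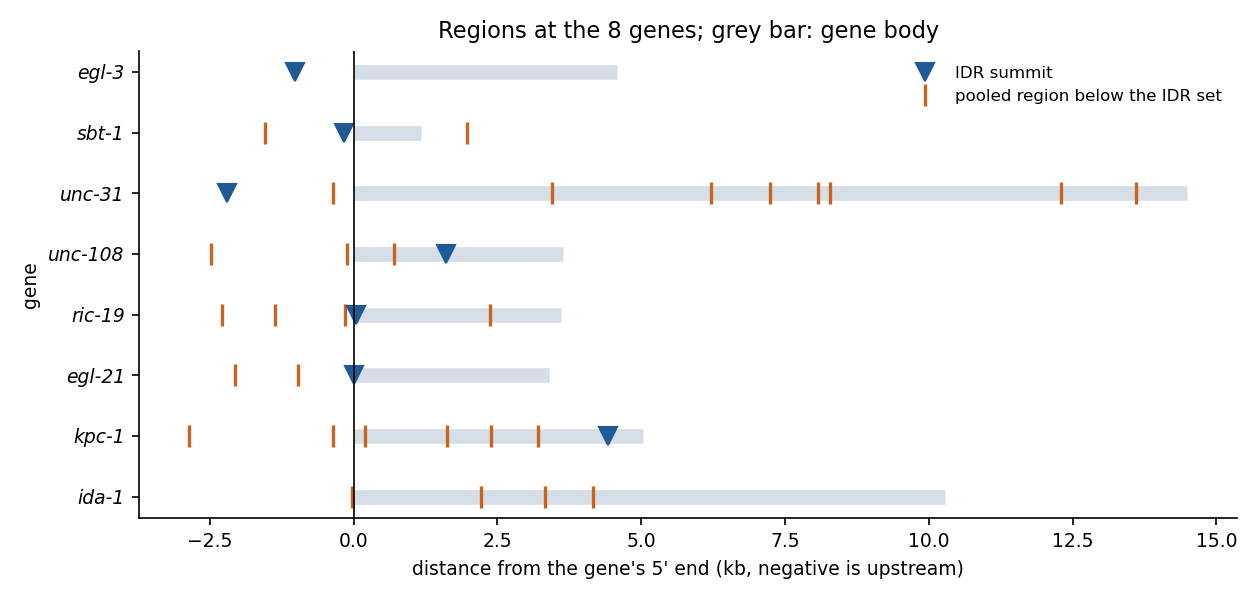
Position of each region relative to the 5′ end of its gene (x axis, kb, negative is upstream) for the 8 genes (rows), with the gene body in grey. Triangles are IDR summits and ticks are pooled regions below the IDR set. Of the 7 triangles, 3 lie within 200 bp of the 5′ end and 4 lie over 1000 bp away, on either side. The share of all IDR summits at these distances was not counted.

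The 7 summits lay at various distances from the annotated 5′ end of their gene. Those at egl-21, ric-19 and sbt-1 lay 0, 49 and 165 bp from the 5′ end, and those at egl-3, unc-108, unc-31 and kpc-1 lay 1018, 1600, 2208 and 4426 bp from it. The unc-108 summit was 464 bp from another annotated start of that gene, so its distance depends on the transcript used. Distances over all IDR summits were not counted, so no background stands beside these. The distance did not order the signals, since the strongest peak was at 1018 bp and the peaks at 0 and 49 bp were among the 3 weakest. In 5 of the 7 cases at least 1 other protein-coding gene held the summit by the same rule, against 53% of all IDR summits, and only the egl-3 and unc-31 summits had a single gene. The region was narrower than the usual width of 370 bp at 6 members, with a median of 235 bp over the 7, while 60.2% of all IDR peaks and 97.5% of pooled regions had exactly that width. The kpc-1 region had it. No member summit was within 200 bp of a tRNA gene. Just beyond the limit of 3 kb, further IDR summits lay 4032 bp from the 5′ end of sbt-1 (signal 178) and 4455 bp from that of egl-3 (122), both upstream.

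Both replicates gave the 7 peaks in the same order but for ric-19 and unc-108, which changed places. IDR kept these peaks by comparing their ranking in the same 2 replicates. Likeness of the replicates at them is thus partly set by that choice and is no independent check. In its own top 1840, replicate 1 had summits at 6 of the 8 genes and replicate 2 at 7, with 13.0% and 13.4% of all protein-coding genes as background. The 6 genes with a summit in both top lists were those with an IDR peak other than kpc-1. Summits of the replicates were within 30 bp of each other at 6 peaks and 37 bp apart at kpc-1. A shared control file is recorded for both lists, and its part in their likeness was not tested.

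**Figure D3:**
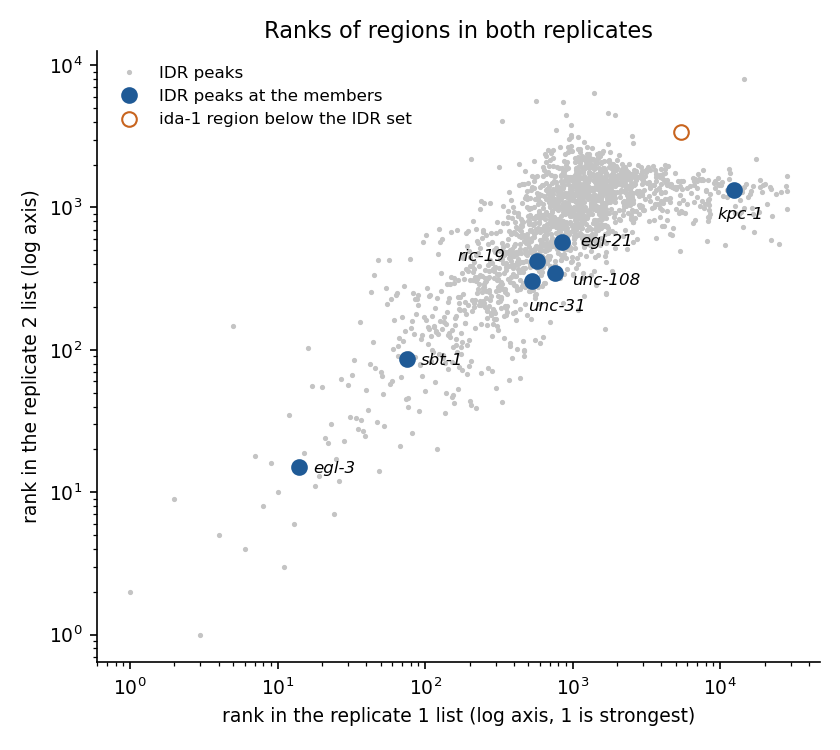
Rank of each IDR peak in the replicate 1 list (x) and the replicate 2 list (y), on log axes where 1 is strongest; grey points are the IDR peaks matched in both lists, filled points the 7 peaks at the members and the open point the ida-1 region. The egl-3 peak ranked 14th and 15th, and kpc-1 stands at the right, at 12388 in replicate 1 and 1321 in replicate 2.

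Over all 8 windows, which add up to 72016 bp, ATCGAT occurred 32 times, and 5 of these copies lay within 50 bp of an IDR summit. Over the 6 nuclear chromosomes this held for 3.30% of 37650 copies; the member windows were named with their peaks known, so the shares are given as a description. Most copies at these genes lay over 50 bp from any summit of the pooled list. At ric-19 all 7 copies lay over 50 bp from any pooled summit, and so did the 4 copies at unc-108 and the 3 at ida-1. Below the IDR set, the 8 genes had 29 pooled regions, and 1 of these, in a coding exon of unc-31 with a signal of 24.1, had ATCGAT in its 100 bp. Over all 28160 pooled regions below the IDR set the share was 9.23%. With ATTGAT on either strand also accepted, 5 of the 7 peaks had a core, beside 62.4% of all IDR peaks.

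**Figure D4:**
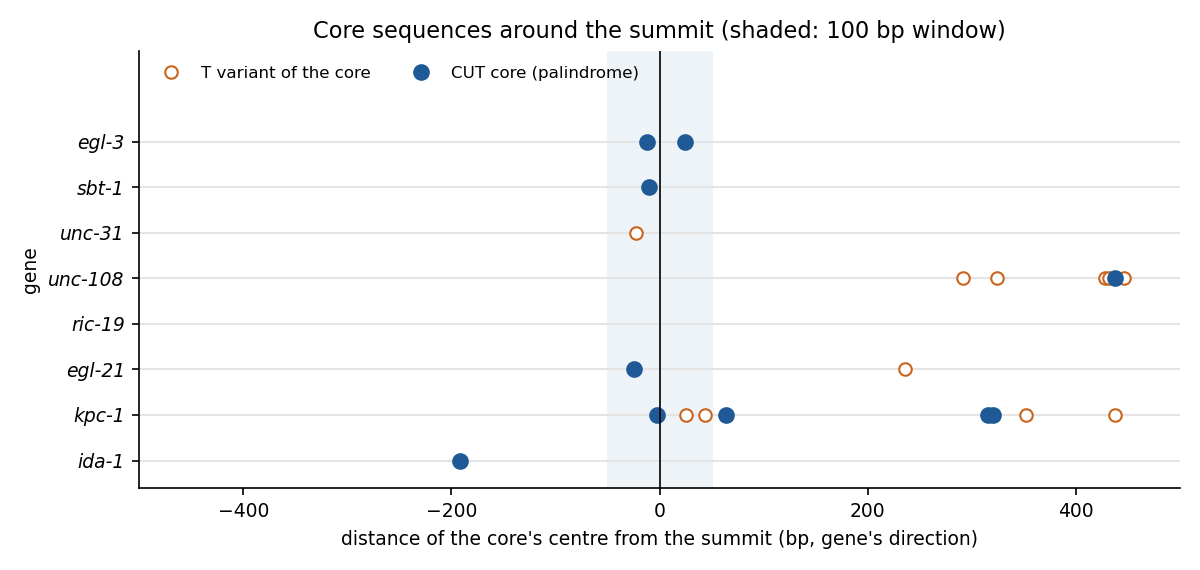
Distance of each core sequence from the summit (x axis, bp, in the direction of the gene) within 500 bp, for the 7 IDR peaks and the ida-1 region (rows). Filled points are ATCGAT, open points ATTGAT on either strand, and the shaded band is the 100 bp window, which holds filled points at egl-3, sbt-1, egl-21 and kpc-1, an open point alone at unc-31, and no point at unc-108, ric-19 and ida-1.

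Within the enzymes that make mature peptides, an IDR summit was found at some genes of each step, beside 13.5% of all protein-coding genes. The steps were grouped with these values known and include the members egl-3, kpc-1 and egl-21, so the counts are a description. Of the 4 proprotein convertases, egl-3 and kpc-1 had an IDR summit. The convertase gene aex-5, known from defecation behaviour, and the cuticle convertase gene bli-4 had pooled regions of at most 54 and 79.9. Of the 3 carboxypeptidases, egl-21 had an IDR summit, cpd-1 had pooled regions of at most 24.5 and cpd-2 had no pooled region. Of the 3 amidating enzyme genes, pghm-1 and pgal-1, which each encode 1 of the amidation steps, had summits close to their starts. The pghm-1 summit lay 31 bp upstream with a pooled signal of 180.2, and 35.3 and 146 in replicates 1 and 2. The pgal-1 summit lay 47 bp upstream with a pooled signal of 169, and 33.4 and 137 in replicates 1 and 2. Both had ATCGAT in the 100 bp window. The gene for the enzyme that joins both activities, pamn-1, had no IDR summit, and its strongest pooled region (63.4) lay 2988 bp upstream.

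Other genes of peptide processing and cargo sorting had an IDR summit in 10 of 19 cases, against the background of 13.5%. The strongest was at cccp-1, a coiled-coil protein that acts with Rab2 in vesicle maturation, 158 bp upstream of the gene, with a pooled signal of 401, and 76.9 and 319.7 in replicates 1 and 2. It was followed by rab-6.2 (pooled signal 246), a Golgi GTPase, and hid-1 (229), which keeps cargo in the maturing vesicle. The peaks at rab-10 (206), pghm-1 (180.2) and rund-1 (172), whose product binds Rab2, came next. The rab-10 summit lay 1158 bp upstream and was also held by knl-2 and mam-8. These genes were longer than most, with a median of 4991 bp, and the members had a median of 4104.5 bp, beside 2027 bp over all protein-coding genes.

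Genes of vesicle transport and release had an IDR summit in 10 of 16 cases, against the background of 13.5%. Their median length was 7907 bp. Like the other lists, this list was chosen with earlier results of these data known, so its share is a description. The strongest was at unc-18, the partner of syntaxin, with a pooled signal of 444, and 131 and 319.8 in replicates 1 and 2. It was followed by snb-1 (pooled signal 266), which encodes synaptobrevin, rab-3 (229.9), the kinesin gene unc-104 (227), the tomosyn gene tom-1 (214) and the Rab27 gene aex-6 (201). The unc-18 summit lay 348 bp upstream and was also held by stn-2, and that of tom-1 lay 289 bp upstream. The strongest summits at snb-1, unc-104 and aex-6 lay 2368, 1915 and 2183 bp upstream, and that of rab-3 lay in intron 1, 2591 bp from the 5′ end. No IDR summit was at unc-13, which encodes a vesicle priming factor, or at ric-4, cab-1, ric-7, aex-1 and snt-1, of which snt-1 had a summit among the top 1840 regions of replicate 2. Of 8 peptidase or peptidase-like genes outside the vesicle, 0 had an IDR summit, beside 13.5% of all protein-coding genes. In this list 1 gene, nep-21, had a summit among the top 1840 regions of replicate 1. That is 12.5% of the list, beside 13.0% of all protein-coding genes. With 8 genes, counts this small lie near the background share. The part that gene length plays in these shares was not tested. The length range given above was that of the members. Some genes of the other lists, such as unc-13 (31332 bp) and snb-1 (940 bp), lay outside it.

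**Figure D5:**
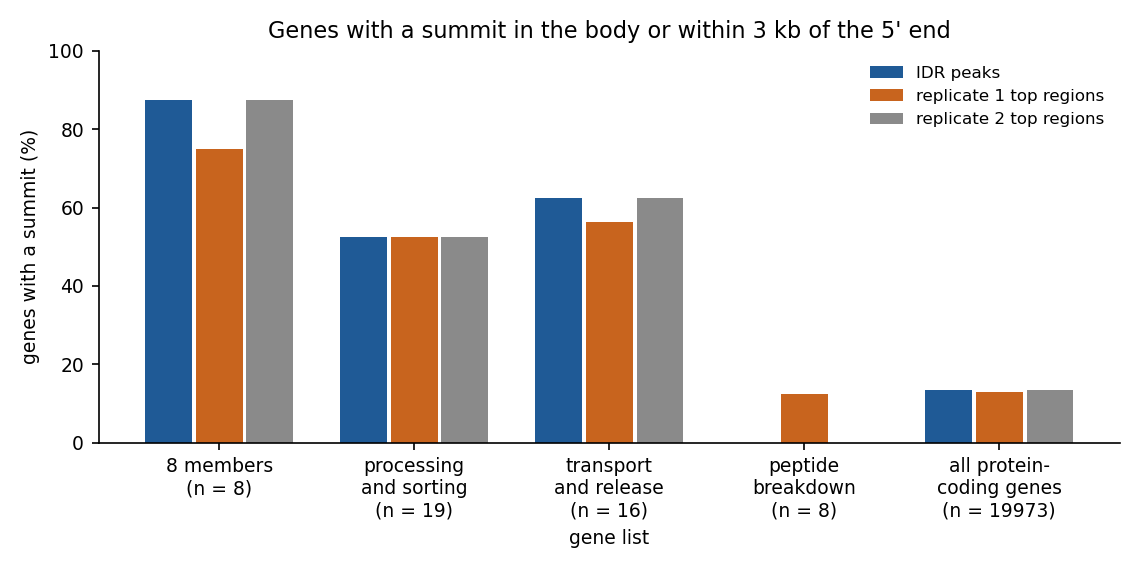
Share of genes with a summit in the gene body or within 3 kb of the 5′ end (y axis, percent, from 0) for the 8 members, the 3 other lists and all protein-coding genes, from the IDR peaks and from the top 1840 regions of each replicate. The members stand at 87.5, 75 and 87.5%, processing and sorting at 52.6% in all 3, transport and release at 62.5, 56.2 and 62.5%, peptide breakdown at 0, 12.5 and 0%, and all genes at 13.5, 13.0 and 13.4%.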

How the data were processed

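Region lists in ce11 coordinates came from 2 ChIP-seq replicates, numbered as in the labels. The authors made a list of peaks with background from each replicate and from both together, each against the same control file, and the IDR list from those lists, per the deposited read-me texts. The signal is the authors' deposited value per region; aligner, peak caller and IDR threshold: not given in the sources used here. Lists for ce10 were not used.

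Positions count from 1. Genes came from Ensembl release 115 and sequence from RefSeq, both for WBcel235, the assembly of ce11; all 8 members were found by name. Summits were assigned to genes by position, matched between lists within 100 bp, and searched for ATCGAT in 100 bp centred on them. A replicate's top list holds its 1840 strongest regions. No test was run. The assignment was tested on simulated summits. The members and the 3 other lists were chosen with earlier results of these data known. Named from each list were up to 6 genes by signal; ric-4, cab-1, ric-7, aex-1, snt-1, unc-13, nep-21 and the enzymes grouped by step were picked with their values known. Other settings were windows of other reach, the 920 strongest peaks, single replicates, interval overlap, nearest 5′ ends and other motif settings. Python 3.11.15, numpy 2.4.6, pandas 2.3.3 and matplotlib 3.10.9 were used.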

Additional observations from a re-analysis of the deposited data

How the results depend on the processing

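With a promoter window (1000 bp before and 200 bp after the 5′ end), 3 members had a summit (egl-21, sbt-1 and ric-19). Of these 3 summits, 2 had ATCGAT. The transport and release list had 4 of 16 genes and the processing and sorting list 8 of 19, beside 6.29% of all genes. This window is shorter and also leaves out the gene body beyond 200 bp. The count of members was 6 without replicate 2 and 7 without replicate 1, 5 with a reach of 1 kb (egl-3 and unc-31 lost, background 8.72%), 7 with 5 kb (18.1%), 6 by nearest 5′ end (8.03%) and 6 with the 920 strongest peaks (7.13%). The peptide breakdown list had 1 gene without replicate 2 and 0 without replicate 1, beside the same 13.0% and 13.4% of all genes. ATCGAT was in 3 of 7 windows of 50 bp (31.7% of all IDR windows) and 4 of 7 of 200 bp (50.1%). No paired analysis was possible because the series has a single group. Depth is unknown, so weak regions such as those at ida-1 and kpc-1 cannot be graded by read counts.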
